A study of Mus musculus with 39 samples.

Results

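The genes described here tune NOTCH signalling or take part in its nuclear complex without being receptors, ligands or HES and HEY factors. The 10 genes are Nrarp, Rbpj, Maml1, Maml2, Maml3, Lfng, Mfng, Numb, Numbl and Mib1. A consensus peak, that is a merged region called in at least 1 of the study's 4 peak lists, was given to one of these genes when the nearest start site of any protein-coding gene on mm10 belonged to it. This rule found 28 of the 20809 consensus peaks on the nuclear chromosomes, at 8 of the 10 genes, whereas Numbl and Mib1 had 0. When noncoding genes could also claim peaks, 14 of the 28 stayed with these genes, and 2 of the 12 at Maml3 did. The rule used position only, so the list and the cluster of each peak were not part of the assignment. The 10 genes themselves were chosen with earlier results of these data known.

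When a ligand on a neighbouring cell activates a NOTCH receptor, the intracellular domain of the receptor (NICD) is released, enters the nucleus and joins the DNA-binding protein RBPJ and a Mastermind-like coactivator (MAML). The fringe enzymes LFNG and MFNG add sugars to the receptor and change its response to ligands, and the endocytic adaptors NUMB and NUMBL restrain NOTCH in differentiating progenitors. MIB1 is a ubiquitin ligase that makes ligands competent to signal, and NRARP is a direct target of the pathway whose product limits NICD. RGCs are the neural stem cells of the embryonic cortex, and IPCs are the more committed progenitors that they produce.

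NOTCH and RBPJ occupancy was profiled by in utero Targeted DamID (TaDa), in which a Dam methylase fused to the protein of interest marks nearby GATC sites in a chosen cell type. All groups were cortices of wild-type MF1 mouse embryos electroporated at E13.5 and dissected at E14.5, with the fusions driven by a Hes5 promoter fragment (pHes5) in RGCs or by a Tubulin alpha1 promoter fragment (pTα1) in IPCs. The 4 RGC Notch samples were 2 of mouse NICD and 2 of mouse NdECD (NICD with the transmembrane domain), the 4 IPC Notch samples all carried mouse NICD, and human RBPJ was fused in 3 RGC and 3 IPC samples. Dam-only samples of the same promoters, 5 of RGCs and 4 of IPCs, were the controls of both lists of a cell type. A peak was kept only when every pair of a fusion sample and a Dam-only sample held it. The Notch lists (4 samples each) thus had more pairs to pass than the RBPJ lists (3 each). The part of this in peaks called for RBPJ alone was not tested. The fused NOTCH and RBPJ proteins are supplied by plasmids in both cell types, and the paper describes their expression in IPCs as ectopic. The cells were not sorted but selected by promoter activity. Each list is pooled over its replicates and gives positions without a height or a score, so neither the spread between replicates nor the depth is known and no test between conditions was possible. Wilson 95% intervals accompany the shares. They hold the counting error over peaks and no other error, and peaks of 1 gene are not independent of each other.

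Among the 10 genes, Nrarp alone had a consensus peak called in all 4 lists, and the sequence under it is shown first. This peak was 1 of 28 (3.57%, interval 0.633 to 17.7), beside 0.678% of all consensus peaks (141 of 20809), a share that the interval contained. All 4 lists had a peak in a stretch of 1421 bp at chr2:25177628-25179048, whose nearer edge lay 1710 bp upstream of the Nrarp start site. This stretch held 4 copies of TTCCCA, the core word of the RBPJ binding motif, counted on both strands (its other strand reads TGGGAA). Of these copies, 2 faced each other head to head with 15 bp between them, the arrangement known as a paired RBPJ site. In the sequences below, bases in capitals are the words. The paired site, at chr2:25177814-25177840 on the plus strand (the strand of Nrarp), began 2944 bp upstream of the start site and is printed with 6 flanking bases on each side. The other copies of the word inside the stretch shared by all 4 lists began 2613 and 1997 bp upstream, and both continued to the longer word TTCCCAC.
Nrarp paired site: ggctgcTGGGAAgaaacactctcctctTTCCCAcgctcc
Nrarp word at chr2:25178133-25178162, plus strand: aggaggatgcccTTCCCActgtctccttct
Nrarp word at chr2:25178749-25178778, plus strand: gggggcctggcgTTCCCAcactgagctcac
Among the 28 peaks only this Nrarp peak held a pair of facing words with a gap of 15 to 17 bp, beside 0.231% of all consensus peaks (48 of 20809) and 6 of 32851 RefSeq promoter windows of 300 bp. These counts are not like for like. The Nrarp peak was 10825 bp wide against a median of 1890 bp over all peaks, and width was not adjusted for. Its pair also lay outside the Nrarp promoter window. A match is a description of the letters and was not tested as a binding site.

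Nrarp (ENSMUSG00000078202, chr2:25180758-25183339, plus strand) is a gene with a single exon. Its peak 3 (peaks of a gene are numbered along the chromosome), chr2:25176345-25187169, was 10825 bp wide, the widest of the 28, and spanned the whole gene. It was assigned to cluster 7, one of the 8 k-means clusters that the authors made from binding intensity. The RGC RBPJ peak covered 10783 bp of it. The RGC Notch peak was 4314 bp wide and ended 100 bp short of the start site. The IPC RBPJ peak was 2146 bp wide and ended 1710 bp short of it, and the IPC Notch peak of 5948 bp ran across the start site. Thus RBPJ in RGCs and Notch in IPCs were called over the start site, whereas IPC RBPJ was called upstream of it only. The gap of 100 bp for RGC Notch is not read as a difference, since the resolution is that of GATC fragments. The 3 Nrarp peaks held 3.12 GATC sites per kb. The other Nrarp peaks lay farther upstream and carried RBPJ calls alone. The peak at chr2:25168864-25172070, 8.69 kb from the start site, was called for RBPJ in both cell types and belonged to cluster 3. The peak at chr2:25161057-25164662, 16.1 kb away, was called in RGCs only and belonged to cluster 5. The 3 Nrarp peaks held 18, 9 and 8 copies of TTCCCA from the nearest to the farthest, or 1.98 per kb together.

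**Figure D1:**
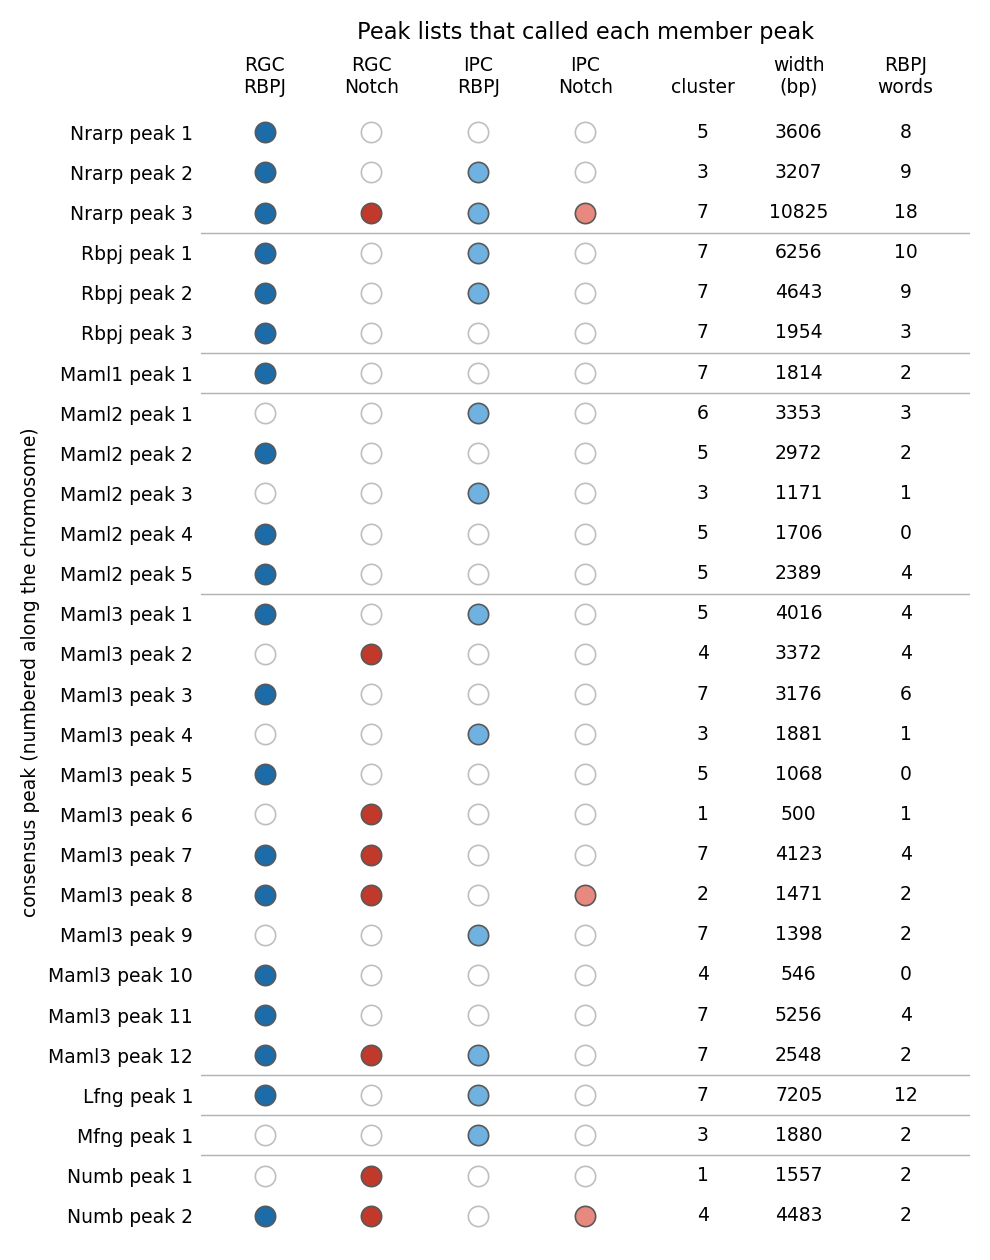
Rows are the 28 consensus peaks of the 8 genes and columns are the 4 peak lists, where a filled circle is a called peak and an open circle is none. The columns on the right give the k-means cluster, the width in bp and the number of RBPJ words (TTCCCA on either strand). Nrarp peak 3 is the only one with 4 filled circles, and all 3 Rbpj peaks carry RBPJ calls without a Notch call. Over all consensus peaks, 0.678% were called in 4 lists and 25.4% had a Notch call in either cell type.

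Over all 28 peaks, the RGC RBPJ list called 20 (71.4%, interval 52.9 to 84.7), beside 67.6% of all consensus peaks. The IPC RBPJ list called 12 (42.9%, 26.5 to 60.9), beside 26.2%. The RGC Notch list called 8 (28.6%, 15.3 to 47.1), beside 17.7%, and the IPC Notch list called 3 (10.7%, 3.71 to 27.2), beside 10.1%. A Notch call in either cell type was present at 8 (28.6%, 15.3 to 47.1), beside 25.4%. The shares of RGC RBPJ, RGC Notch and IPC Notch peaks therefore had intervals that contained the share of all peaks, and that of IPC RBPJ peaks had a lower bound of 26.5% against 26.2%. RBPJ was called in both cell types in 7 of the 28 (25%, 12.7 to 43.4), beside 6.85%. These 7 were Nrarp peaks 2 and 3, Rbpj peaks 1 and 2, Maml3 peaks 1 and 12 and the Lfng peak. Peaks called in 2 or more lists numbered 10 (35.7%, 20.7 to 54.2), beside 17.1%, and peaks called in 3 or 4 lists numbered 4 (14.3%, 5.7 to 31.5), beside 3.88%. Wide peaks were more often called in several lists over the whole genome. Width and the number of lists are linked by construction, since a consensus peak merges the overlapping peaks of all lists that called it. Peaks of at least 4000 bp made up 28.6% of the 28 and 11.2% of all, and 49.3% of all such peaks were called in 2 or more lists. Of the 8 member peaks of that width, 7 were. In the width range of 1000 to 2000 bp the count was 1 of 10, beside 8.41% of all peaks of that width. The part of width in the higher shares was not tested.

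**Figure D2:**
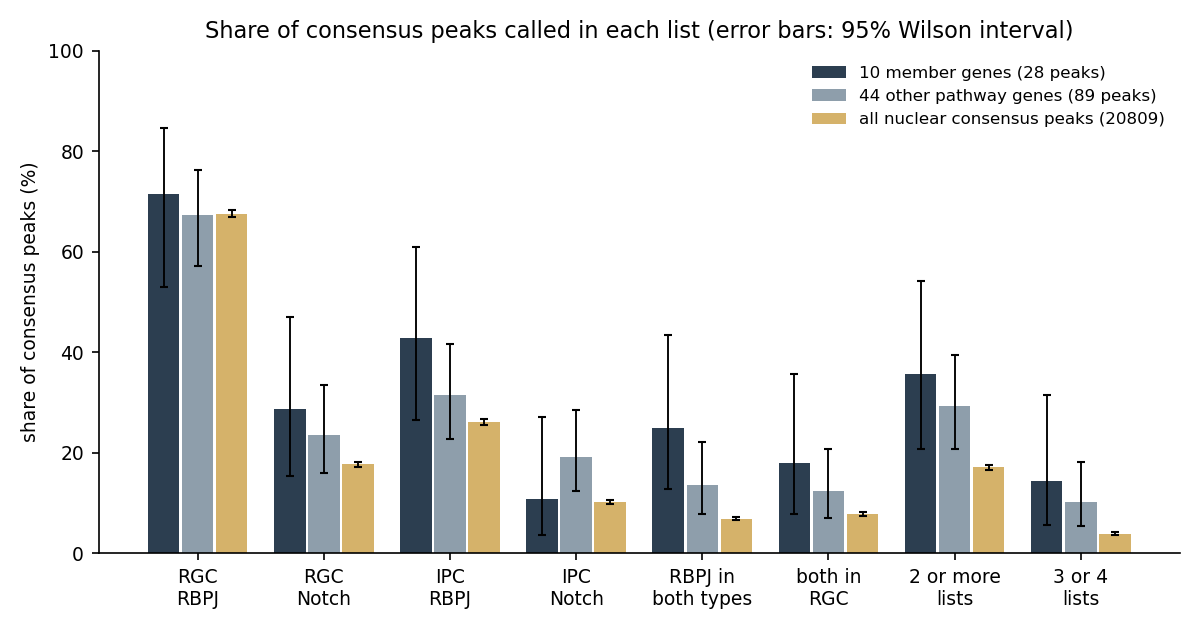
Bars give the share (%) of consensus peaks with each call for the 28 peaks of the 10 genes, for the 89 peaks of 44 other NOTCH pathway genes and for all 20809 nuclear consensus peaks. Error bars are Wilson 95% intervals over peaks. The bars of the 10 genes and of the other pathway genes stand above that of all peaks for RBPJ in both cell types and for 2 or more lists, and the bars for RGC RBPJ lie at 71.4, 67.4 and 67.6%.

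At the level of genes, 8 of 10 had at least 1 consensus peak, beside 38.7% of the 21938 protein-coding genes. A peak of the RGC RBPJ list was found at 7 of the 10, beside 30.9% of all genes, and a peak of the IPC RBPJ list at 6, beside 16.2%. Each Notch list had a peak at 3 of the 10, beside 11.5% of genes for RGCs and 6.91% for IPCs, and the 3 genes were Nrarp, Maml3 and Numb in both cell types. Intervals over 10 genes are wide (10.8 to 60.3% for 3 of 10). A gene with few neighbours collects more peaks under the nearest-start rule, and these genes had a median territory of 92 kb (the sequence nearer to their start sites than to those of other genes) against 45 kb over all genes. Per 100 kb of territory they held 1.82 consensus peaks, or 1.47 without Maml3, against 0.763 over the nuclear genome. Per gene, Nrarp had the densest territory with 5.9 peaks per 100 kb, followed by Maml1 with 3.32, Lfng with 3, Maml3 with 2.68 and Mfng with 2.56. Maml2 (1.93), Numb (1.5) and Rbpj (0.984) were lower, and these densities rest on 1 to 12 peaks each.

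The nuclear complex comprised 4 genes with 21 peaks, 15 of them called in the RGC RBPJ list (71.4%, beside 67.6% of all peaks), 8 in IPC RBPJ (38.1%, beside 26.2%), 5 in RGC Notch (23.8%, beside 17.7%) and 1 in IPC Notch (4.76%, beside 10.1%). Rbpj (ENSMUSG00000039191, chr5:53466152-53657362, plus strand) encodes the DNA-binding partner itself. All 3 of its peaks were RBPJ peaks, and neither Notch list called any of them. Over all consensus peaks, 87% had an RBPJ call and 25.4% had a Notch call in either cell type. Peak 2, on a cluster of start sites, chr5:53588780-53593422, covered 4643 bp in the RGC RBPJ list, and the IPC RBPJ peak inside it was 1153 bp wide and also covered annotated start sites. The RefSeq promoter sequence upstream of the first exon there is shown because both RBPJ lists covered it and it held the word, on the minus strand.
Rbpj, chr5:53590096-53590213 (GRCm38.p6, plus strand): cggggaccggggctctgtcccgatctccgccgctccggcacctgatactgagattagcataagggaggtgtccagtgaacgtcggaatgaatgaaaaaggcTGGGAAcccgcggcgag
Peak 3, chr5:53594041-53595994, in the first intron of the principal transcript, was called in RGCs only. Peak 1, chr5:53521345-53527600, was 6256 bp wide and lay inside the gene record, with its midpoint 58.3 kb from the 5′ end of the record. The nearest start site was an internal one, 28.1 kb downstream of the peak. Here the RGC list had 1 peak of 6164 bp and the IPC list 2 peaks of 1692 and 2268 bp. All 3 Rbpj consensus peaks belonged to cluster 7. With only the 5′ end of each gene record as its start site, peaks 2 and 3 went to Cckar and 1 of the 3 stayed with Rbpj. RBPJ peaks of RGCs lay over 9.04% of the 1736 coding bases of Rbpj and those of IPCs over 7.89%, and Notch peaks over 0%. In the Maml genes the largest such share was 14.2%, at the first exon of Maml2 in IPCs. The plasmids carry the human counterpart of Rbpj, and its part in these peaks was not tested.

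**Figure D3:**
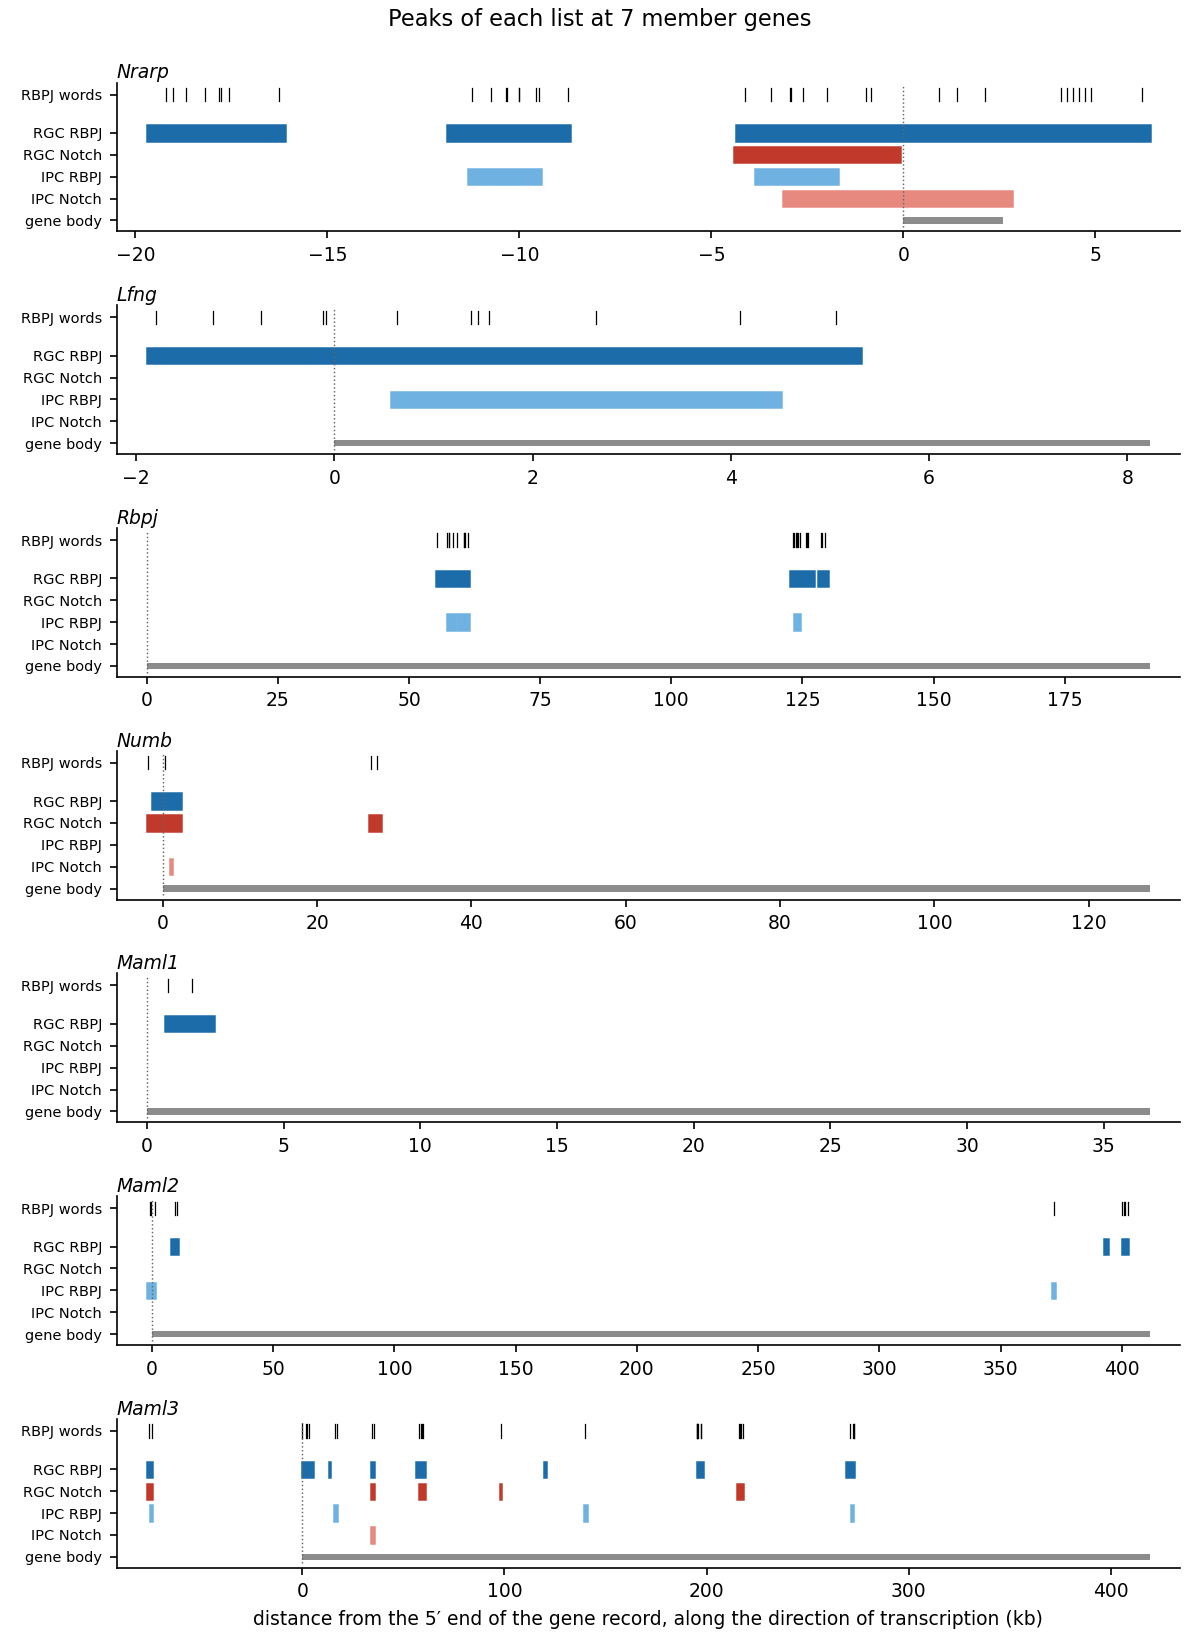
Each panel shows a gene with the distance from the 5′ end of its record (kb) along the direction of transcription, and bars are the peaks of the 4 lists. Ticks above are RBPJ words inside consensus peaks, and the grey bar is the gene body. The 4 lists meet upstream of Nrarp. Among the peaks assigned to these genes, those at Lfng, Rbpj, Maml1 and Maml2 are RBPJ peaks alone, and Notch peaks are present at Numb and Maml3. Peaks in the body of Maml2 that were assigned to another gene are not drawn.

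The Mastermind-like genes, which encode the coactivators of the complex, differed in the number and kind of their peaks. Maml1 (ENSMUSG00000050567, chr11:50255634-50292311, minus strand) had 1 peak, chr11:50289843-50291656, in its first intron and 148 bp from a start site, called for RGC RBPJ only. Maml2 (ENSMUSG00000031925, chr9:13297957-13709388, plus strand) had 5 peaks, each called in 1 list. The peak on its start site, chr9:13295875-13299227, was called for RBPJ in IPCs and not in RGCs and belonged to cluster 6. The peak 7.99 kb inside the gene was called for RBPJ in RGCs and not in IPCs. The remaining 3 lay in the 3′ part of the gene and carried RBPJ calls, 2 in RGCs and 1 in IPCs. A further 3 peaks inside the body of Maml2 were nearer to the start site of the predicted gene Gm17571 and were not counted. Of these, 2 carried a Notch call. The peak at chr9:13424301-13426526 (cluster 2) was called for both proteins in RGCs and for RBPJ in IPCs, and that at chr9:13521187-13525108 (cluster 1) for both proteins in RGCs, so the absence of a Notch call at Maml2 depended on the assignment.

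Maml3 (ENSMUSG00000061143, chr3:51685907-52105076, minus strand) had 12 peaks, as many as or more than 99.3% of protein-coding genes. Of the 12, the RGC RBPJ list called 8, RGC Notch 5, IPC RBPJ 4 and IPC Notch 1. The gene is 419 kb long, and 9 of its peaks lay wholly in its first intron. The peak on the start site, chr3:52099989-52105244, 5256 bp wide and in cluster 7, was called for RGC RBPJ alone. Notch calls were found away from the start site. At 34.1 kb inside the gene, chr3:52069483-52070953 (cluster 2) was called for both proteins in RGCs and for Notch in IPCs, with peaks of 1405, 1355 and 1471 bp that ended at the same position. At 74.3 kb upstream of the gene, chr3:52179386-52181933 (cluster 7) was called for both proteins in RGCs and for RBPJ in IPCs, with peaks of 2377, 2548 and 844 bp that began at the same position. At 56.4 kb inside, chr3:52044506-52048628 (cluster 7) was called for both proteins in RGCs and for neither in IPCs. The peak at chr3:51831988-51836003 (cluster 5) was called for RBPJ in both cell types. The other 7 were each called in 1 list, namely 3 in RGC RBPJ, 2 in RGC Notch and 2 in IPC RBPJ. The words in the stretches that all 3 calling lists shared are shown, since these are the Maml3 places with the most calls. None continued to TTCCCAC except that of the upstream peak.
Maml3 word at chr3:52069782-52069811, minus strand: gtgtgggtgtctTTCCCAggagagcgcccg
Maml3 word at chr3:52070800-52070829, plus strand: caaagcaaggcaTTCCCAattagaaagaag
Maml3 word at chr3:52179614-52179643, plus strand: aaaaaaaaagtcTTCCCAcagcagcatgca
The 2 words of the intronic peak and the word of the upstream peak lay under 3 lists each. Maml3 peaks 5 and 10, both called for RGC RBPJ only, held 0 copies of the word.

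The receptor modifiers had 2 peaks, both with an IPC RBPJ call and neither with a Notch call. Over all consensus peaks, 26.2% had an IPC RBPJ call and 25.4% a Notch call in either cell type. Lfng (ENSMUSG00000029570, chr5:140607320-140615545, plus strand), a fringe gene, had 1 peak of 7205 bp on its start site, chr5:140605429-140612633. It belonged to cluster 7 and reached from upstream of the promoter into the gene over exons 1 to 4 of 8. The RGC RBPJ peak filled the whole region, and the IPC RBPJ peak of 3934 bp at chr5:140607892-140611825 left out the promoter and lay inside the gene, where it covered an internal annotated start site. The region held 12 copies of TTCCCA, 6 of them in the part called in both cell types, where 0 continued to TTCCCAC. The promoter, covered by the RGC list only, held 2 copies on opposite strands and is shown up to the annotated first exon.
Lfng, chr5:140607091-140607319 (GRCm38.p6, plus strand): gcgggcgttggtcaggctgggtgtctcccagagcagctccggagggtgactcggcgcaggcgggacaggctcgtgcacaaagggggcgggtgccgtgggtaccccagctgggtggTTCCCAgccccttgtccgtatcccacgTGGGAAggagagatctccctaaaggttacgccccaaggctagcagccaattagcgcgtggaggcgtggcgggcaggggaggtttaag
The Lfng words point away from each other and were not counted as a pair. Over all RefSeq promoter windows, 25.6% held TTCCCA. Of the 12 windows that matched 8 of the 10 genes, 5 held it, at Rbpj (2 windows), Lfng, Maml3 and Maml2. The Nrarp window held 0 copies.

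Mfng (ENSMUSG00000018169, chr15:78755882-78773475, minus strand), the second fringe gene, had 1 peak at the other end of the gene. The peak, chr15:78755716-78757595, covered exons 7 and 8 of 8 and lay 9.57 kb from the nearest start site of Mfng. It was called for IPC RBPJ only and belonged to cluster 3. It held 0 GATC sites, the only sequence that Dam methylates. The same was true of Maml2 peak 3 and Maml3 peak 4, which were also called for IPC RBPJ only and belonged to cluster 3. The fourth member peak of cluster 3, Nrarp peak 2, held 10 GATC sites. Over all peaks, 51.3% of cluster 3 held 0 GATC sites and 0.412 to 4.04% of each other cluster did. The part of these missing sites in the 3 calls was not tested.

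Among the endocytic adaptors and the ligand-activating Mib1, Numb had Notch peaks and the others had no peak of either protein. Numb (ENSMUSG00000021224, chr12:83794034-83921934, minus strand) had 2 peaks. The peak on its start site, chr12:83919507-83923989, was 4483 bp wide, belonged to cluster 4 and was called for RBPJ (3795 bp) and Notch (4462 bp) in RGCs. In IPCs it was called for Notch only, with a peak of 323 bp inside the gene, 736 bp from the nearest start site, and for RBPJ it was not called. This 323 bp stretch, the part shared by 3 lists, held 0 copies of TTCCCA, and the whole region held 2, or 0.446 per kb. The second peak, chr12:83893589-83895145, lay in the first intron of the longest transcript with a consensus coding sequence, was called for RGC Notch only and belonged to cluster 1. Numbl (ENSMUSG00000063160, chr7:27258433-27282144) had 0 peaks in its body, and the nearest consensus peak to its start sites lay 73.9 kb away and was assigned to Ltbp4. Mib1 (ENSMUSG00000024294, chr18:10725548-10818704) likewise had 0, with the nearest peak 77.7 kb away and assigned to Abhd3. A gene with no peak was not called under the authors' criterion that every pair of samples holds the peak, which does not show that it was not bound.

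By cluster, 11 of the 28 peaks belonged to cluster 7 (39.3%, 23.6 to 57.6), beside 11% of all consensus peaks. They were the 3 Rbpj peaks, the peaks of Maml1 and Lfng, 5 Maml3 peaks and the Nrarp peak on the gene. Clusters 2, 4, 6 and 7, which the study describes as bound by both proteins, held 16 of the 28 (57.1%, 39.1 to 73.5), beside 36.3%. Cluster 8, described as RBPJ alone in RGCs, held 0 of 28 (interval 0 to 12.1%), against 14.4% of all peaks. Of the 89 peaks at 44 other pathway genes, clusters 2, 4, 6 and 7 held 59.6% (49.2 to 69.1) and cluster 8 held 3.37% (1.15 to 9.45). The cluster of a peak and its calls need not match. Of the 11 peaks in cluster 7, 11 had an RBPJ call and 3 had a Notch call, and over all 2289 peaks of that cluster 97.9% and 18.3% did. The Maml2 start site peak was in cluster 6 without a Notch call, whereas 59.6% of cluster 6 had one. Both proteins were called in the same cell type at 5 of the 28 (17.9%, 7.88 to 35.6), beside 9.45% of all peaks, namely Nrarp peak 3, Maml3 peaks 7, 8 and 12 and Numb peak 2. The peaks at Rbpj, Maml1 and Lfng thus lay in a cluster of co-binding by intensity while the lists called RBPJ alone.

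**Figure D4:**
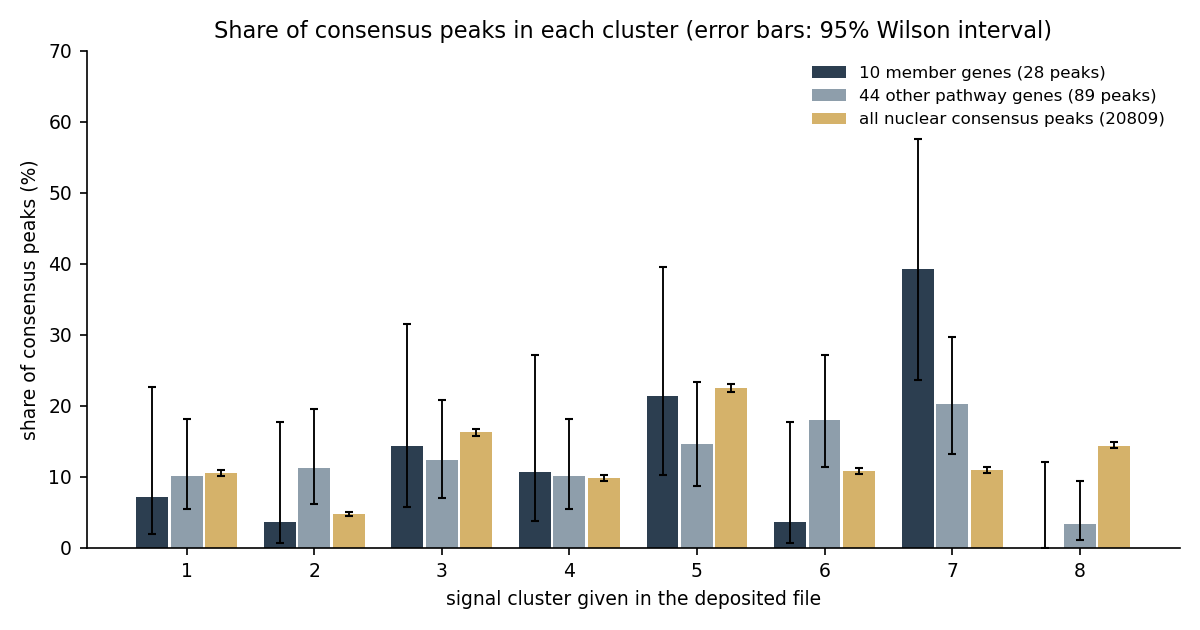
Bars give the share (%) of consensus peaks in each k-means cluster for the 28 peaks of the 10 genes, the 89 peaks of 44 other pathway genes and all 20809 nuclear peaks, with Wilson 95% intervals over peaks. The 28 peaks stand at 39.3% in cluster 7, where all peaks stand at 11%, and hold none of cluster 8.

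On start sites lay 6 of the 28 peaks (21.4%, 10.2 to 39.5), beside 16.6%, and these were 1 each at Nrarp, Rbpj, Maml2, Maml3, Lfng and Numb. The Nrarp peak had all 4 calls, the Rbpj and Lfng peaks had RBPJ calls of both cell types, the Maml3 peak had RGC RBPJ alone and the Maml2 peak IPC RBPJ alone, and the Numb peak had 3 calls without IPC RBPJ. Of the 28 peaks, 16 lay in introns and 6 overlapped an exon of the principal transcript. The median distance to the start site was 15.9 kb and the median width 2760 bp, against 21.1 kb and 1890 bp over all peaks.

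The word TTCCCA was present in 25 of the 28 peaks (89.3%, 72.8 to 96.3), beside 82.9% of all peaks. The count depends on width, as 99.3% of all peaks of at least 4000 bp held it and 54.6% of those under 1000 bp. Per kb, the 28 peaks held 1.32 words and all peaks 1.17. The feedback inhibitor Nrarp had 1.98 words per kb, the receptor modifiers 1.54, the nuclear complex 1.15 and the endocytic adaptors 0.662. These densities rest on 35, 14, 64 and 4 words.

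**Figure D5:**
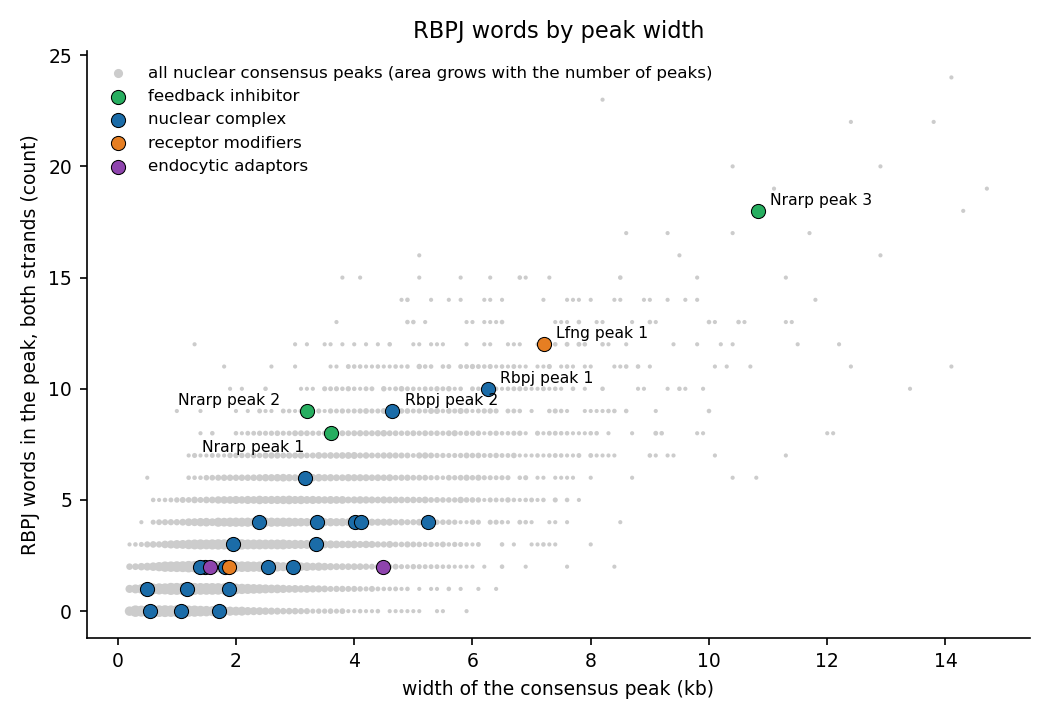
Each coloured point is one of the 28 peaks by its width (kb) and its number of RBPJ words on both strands, coloured by the role of the gene, and grey points are all nuclear consensus peaks. Word number grows with width, with Nrarp peak 3 at 18 words in 10825 bp and Numb peak 2 at 2 words in 4483 bp.

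Other genes of the pathway, a list of 44 receptors, ligands, HES and HEY factors, proteases, modifiers and cofactors, gave a comparison. Of these, 30 had at least 1 consensus peak (89 peaks in all). The RGC RBPJ list had a peak at 25 of them (56.8%, interval 42.2 to 70.3), beside 30.9% of all protein-coding genes, and RGC Notch at 12 (27.3%, 16.3 to 41.8), beside 11.5%. IPC RBPJ had a peak at 14 (31.8%, 20 to 46.6), beside 16.2%, and IPC Notch at 6 (13.6%, 6.4 to 26.7), beside 6.91%. Their peaks were called in 2 or more lists at 29.2% (20.8 to 39.4) and belonged to cluster 7 at 20.2% (13.2 to 29.7), and both intervals overlapped those of the 28 peaks. Genes with a peak called in 3 or 4 lists included the effector genes Hes1 and Hey1 (up to 4 lists), and Hes5 and the receptor gene Notch1 (up to 3 lists). Hes1 had 12 peaks, all 12 called for RGC RBPJ, and Notch1 had 12, of which 8 were called for IPC Notch. Notch1 encodes the receptor whose intracellular domain the plasmids carry, and a Hes5 promoter fragment is on the RGC plasmids. The part of these plasmid sequences in the Notch1 and Hes5 calls was not tested.

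Over all its peaks, each gene can be described by the lists that called at least 1. Nrarp and Maml3 were called in all 4 lists, as were Notch1, Hes1, Hes5 and Hey1 among others. Rbpj, Maml2 and Lfng were called in both RBPJ lists and neither Notch list, as were Notch4, Jag1 and Spen, a corepressor that binds RBPJ. For Maml2 this depended on the assignment, since peaks in its body with RGC Notch calls went to Gm17571. Most genes had no Notch call, as 11.5% of protein-coding genes had an RGC Notch peak and 6.91% an IPC Notch peak. Maml1 shared its single list, RGC RBPJ, with 10 other pathway genes. Mfng shared IPC RBPJ alone with Notch3, Dll3, Hey2 and Ncstn. Numb, called in both RGC lists and for Notch in IPCs, had the same lists as 0 of the 44. These likenesses compare 4 lists only, and 2 of them share the same Dam-only samples in each cell type.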

How the data were processed

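TaDa data of 14 samples lie behind the 4 peak lists (3 RBPJ and 4 Notch samples in each cell type), with 9 Dam-only samples as controls, and the other 16 samples of the series were not analysed here. According to the methods of the study, TrimGalore v0.4.5 trimmed the reads, which were then mapped to mm10, and Macs2 v2.1.2 called broad peaks for each fusion sample against each Dam-only sample, of which those found in all such comparisons were kept. Overlapping peaks were merged with bedtools v2.26.0 and clustered by k-means on intensity. The values deposited by the authors are peak positions in bp and a cluster number, with no signal, score or single-sample value. Depth is unknown.

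Positions are printed counted from 1. Nearest start sites came from GENCODE M21 protein-coding transcripts, and sequences from GRCm38.p6, the assembly of mm10, or from RefSeq promoter windows (250 bp before to 50 bp after a start). A list called a consensus peak when it overlapped by at least 1 bp. Exons and introns are numbered on the APPRIS principal transcript unless stated. Analyses used Python 3.11.15, numpy 2.4.6, scipy 1.17.1, pysam 0.24.0 and matplotlib 3.10.9, tested on simulated data. All 10 genes are named, and single peaks are described when called in 2 or more lists or on a start site. Other pathway genes are named when a peak was called in 3 or 4 lists or when their lists matched those of a member, except the 10 that matched Maml1, which are given as a count. A further result that this rule would name is not reported here. The members and gene lists were chosen with earlier results of these data known. Alternatives were other assignments, overlap and width minimums, motif words and windows, and leaving out each gene.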

Additional observations from a re-analysis of the deposited data

How the results depend on the processing

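When noncoding genes were also allowed to claim peaks, the 28 peaks became 14, with 2 at Maml3 and 3 at Maml2. With 1 start site per gene the number was 23 (Rbpj 1 in place of 3, Maml2 2 in place of 5, Maml1 2 in place of 1), within 100 kb 25, by the midpoint 28, and by gene body plus 5 kb upstream 28, where Maml2 had 8 and Nrarp 1. The share of peaks with co-binding was 57.1% by cluster and 17.9% by peak calls of both proteins in the same cell type, beside 36.3% and 9.45% of all peaks. The share that holds the word was 53.6% for the longer word TTCCCAC (41.2% of all peaks) and 53.6% in the central 500 bp (44% of all peaks). Word density in the central 500 bp was 1.21 per kb (1.18 over all peaks). With each gene left out in turn, the shares ranged from 68 to 75% in the RGC RBPJ list, 18.8 to 34.8% in RGC Notch, 40 to 50% in IPC RBPJ, 7.69 to 13% in IPC Notch and 50 to 65.2% in clusters 2, 4, 6 and 7. In settings chosen after seeing the data, the share in cluster 7 ranged from 32 to 47.8%, that called in 2 or more lists from 32 to 43.5%, and facing words with a gap of 14 to 18 bp were found in 1 member peak and 83 of all peaks. No paired analysis was possible because the lists are pooled over replicates and hold no value of a single sample, and for the same reason no replicate could be left out. Counts over 10 genes and 28 peaks give wide intervals, peaks of 1 gene share a locus, and the resolution is that of GATC fragments.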
